A study of Mus musculus with 6 samples.

Results

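The genes described here are the Wnt ligands, the Frizzled receptors, the co-receptors Lrp5 and Lrp6 and the secreted antagonists Dkk1, Dkk2 and Dkk3. They were chosen by name, as protein-coding genes of the GENCODE M21 annotation whose symbol is Wnt or Fzd followed by a digit, plus the 5 Lrp and Dkk genes, which gave 34 of 21951 protein-coding genes (19 Wnt and 10 Frizzled genes). Each gene was taken from 1 kb upstream of its start to its end. The 34 windows held 2816 of the 890041 cytosines measured in the series, or 0.316%. All 2816 lay at CpG dinucleotides of the GRCm38 reference (mm10), and they covered 2291 CpGs, 525 of them on both strands.

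Methylation had been read in the dissected dentate gyrus with reduced representation bisulfite sequencing (RRBS). The dentate gyrus is a region of the hippocampus in which neurons are still born in adult mice. The animals were 6 female C57BL/6JRj mice without a genetic modification named in the labels, all 4.5 months old. Of these, 3 had lived in standard cages (STD) and 3 in an enriched environment (ENR), which is a large cage with changing objects to explore. The study asked whether ENR changes DNA methylation in this tissue, and each library came from 1 mouse.

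Wnt proteins are secreted lipid-modified ligands that bind Frizzled receptors, which cross the membrane 7 times, together with Lrp5 or Lrp6. In the canonical pathway this complex stops the breakdown of β-catenin, which then acts with Tcf and Lef factors on target genes. Other Wnt proteins act through planar cell polarity or calcium instead. Dkk1 and Dkk2 bind Lrp5 and Lrp6 and interfere with signaling, whereas Dkk3 is a divergent family member. In the dentate gyrus, Wnt signals from astrocytes and from the neural progenitors themselves are known to act on the birth of new neurons. CpG methylation at a promoter is usually low where the promoter lies in CpG-rich sequence, and RRBS samples mainly such sequence because it starts from fragments cut at CCGG.

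The sequences that the results turn on are given first, in the direction of the gene from GRCm38.p6, in lower case with the measured CpGs in capitals. The 4 CpGs upstream of Lrp5 (chr19:3687128-3687427, minus strand) carried the difference in the promoter with the lowest p-value. The pair of CpGs upstream of Wnt5a (chr14:28503899-28503964, plus strand) lay in the most methylated promoter. The bases before the start of Fzd4 (chr7:89404105-89404354, plus strand) show an unmethylated Frizzled promoter, and the Fzd7 bases (chr1:59484427-59484499, plus strand) lie in the methylated end of its coding exon.
Lrp5 upstream: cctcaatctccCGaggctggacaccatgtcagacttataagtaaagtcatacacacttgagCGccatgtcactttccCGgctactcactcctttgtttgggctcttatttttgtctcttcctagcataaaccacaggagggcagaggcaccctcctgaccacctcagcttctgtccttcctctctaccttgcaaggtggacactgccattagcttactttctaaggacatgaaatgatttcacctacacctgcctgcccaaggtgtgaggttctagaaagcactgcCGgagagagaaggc
Wnt5a upstream: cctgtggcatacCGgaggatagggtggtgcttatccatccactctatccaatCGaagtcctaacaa
Fzd4 before the start: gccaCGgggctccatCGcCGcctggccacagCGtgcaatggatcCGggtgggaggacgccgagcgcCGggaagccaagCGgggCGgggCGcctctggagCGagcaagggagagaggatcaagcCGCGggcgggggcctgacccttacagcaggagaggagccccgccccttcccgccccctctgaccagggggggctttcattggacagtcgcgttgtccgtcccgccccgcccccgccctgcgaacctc
Fzd7 coding exon: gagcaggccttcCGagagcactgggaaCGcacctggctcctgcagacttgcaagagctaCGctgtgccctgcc

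The stretches differ in how dense they are. The 300 bases upstream of Lrp5 hold 4 CpGs and all 4 were measured, whereas the 250 bases before the start of Fzd4 hold 25 CpGs, 12 of them measured. Of the 34 genes, 23 matched an entry in the RefSeq table of promoters (GRCm38.p6, 250 bases before to 50 after a start), with 26 promoters. The letters CCGG, which read the same on both strands, were found in 23 of the 26 promoters (88.5%) and in 52.8% of all 32851 promoters of the table. The median number of CpGs in a promoter was 28 for these genes and 7 for all, and the median content of G and C was 71.0% and 52.7%.

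Coverage differed widely among the genes. Wnt16 had 0 measured sites, although its window held 201 CpGs and 9 CCGG, so nothing is known here of its methylation. The other 33 genes had 5 to 186 sites, with a median of 63, against a median of 35 over all covered protein-coding genes. Fzd5 had the most sites (186), followed by Wnt7b (177), Fzd1 (171) and Wnt11 (153), and Wnt8a had the fewest (5). Fzd1 and Fzd9 were read most completely, with 50.7% and 50.5% of the CpGs in the window measured. In the long genes Lrp5 and Dkk2, 2.77% and 2.36% of CpGs were measured. Promoters, meaning 1 kb either side of the gene start, had at least 3 sites in 31 genes and none in Wnt8a and Wnt8b. Of the member sites, 131 also lay in the window of another protein-coding gene, and their value cannot be assigned to a single gene.

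Methylation of these genes was low. Over all 2816 sites it was 7.90% ± 0.375 in STD against 7.49% ± 0.536 in ENR (mean ± SD, n = 3 each). Over the whole series it was 23.7% ± 0.989 in STD against 23.2% ± 1.58 in ENR (mean ± SD, n = 3 each). Of the member sites, 84.6% had a mean under 10%, against 63.7% of all sites. Sites over 80% made up 2.59% (73 sites in 18 genes), against 15.5% of all sites. The table also holds sites outside genes, and the median of gene means was closer, at 8.11% in the 33 covered genes and 9.74% in all genes with at least 3 sites.

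The sites over 80% were not at promoters. None of the 73 lay within 1 kb of the gene start, 50 lay in introns, 21 in coding exons and 2 in 3′ UTRs. By feature, the mean was 1.63% in 5′ UTRs, 3.06% upstream of the gene, 8.21% in coding exons, 13.6% in introns and 20.5% in 3′ UTRs. By distance from the gene start, it was 1.47% over the first 500 bases and 23.7% beyond 10 kb.

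At every distance compared, these genes were below the average of all protein-coding genes. Distance was here taken to the nearest annotated start of any transcript. At 1 to 2 kb from a start, the mean was 7.09% over 473 member sites and 24.7% over 34514 sites of all protein-coding genes. At 2 to 5 kb it was 18.0% and 40.7%, at 5 to 10 kb 30.9% and 50.8%, and beyond 10 kb 32.2% and 54.5%. Of sites beyond 1 kb from every start, 67.2% of the 931 member sites were under 10%, against 28.5% of all. Of 28 genes with at least 3 such sites, 23 were below the median of all genes (56.8%), and the median of the 28 was 14.6%. Neighboring sites share reads and each distance rests on 10 to 31 genes, so these values are given without a test.

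**Figure D1:**
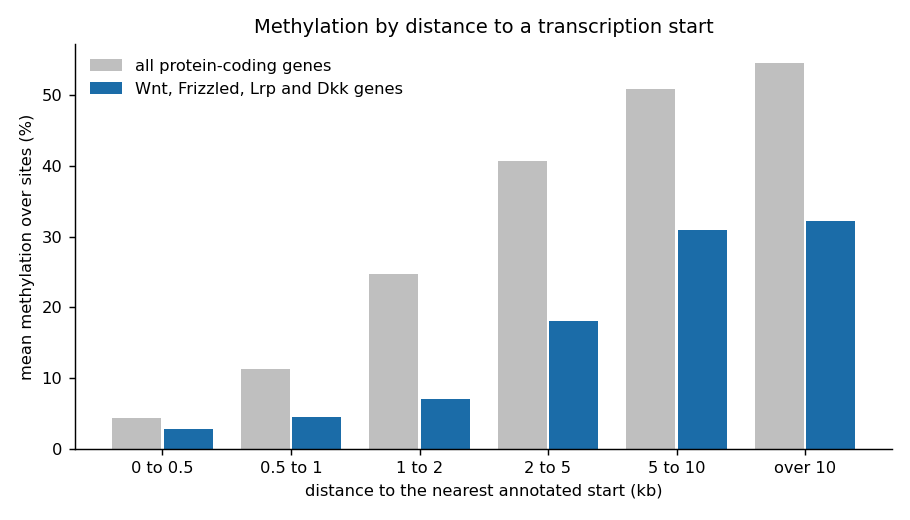
Mean methylation in percent (vertical axis) over the sites at each distance in kb from the nearest annotated transcription start (horizontal axis), averaged over the 6 libraries, for all protein-coding genes (gray) and for the Wnt, Frizzled, Lrp and Dkk genes (blue). The blue bar is the lower one at each distance, with 7.09% against 24.7% at 1 to 2 kb.

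By family, the Frizzled receptors were the least methylated (4.39% over 1089 sites), followed by the Wnt ligands (8.76% over 1518 sites), the Dkk genes (12.3% over 101 sites) and the Lrp co-receptors (21.7% over 108 sites). The families differ in where their sites lie, so these are not levels at like positions. Promoters were at 0.873% to 2.10% in the Frizzled genes and at 2.25% to 5.22% in the Dkk genes, and those of Lrp6 and Lrp5 were at 0.916% and 7.07%. The median promoter was at 1.70%, against 1.64% over all promoters tested, and 26 of 31 were under 5%, against 83.3% of all. Only the promoters of Wnt5a (17.8%) and Wnt10a (10.3%) were over 10%.

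Among the Wnt ligands, gene means ran from 2.93% in Wnt1 to 23.6% in Wnt7a. Wnt1, a canonical ligand known from the patterning of the midbrain, was low at the 98 sites read, which cover 26.3% of its CpGs. Wnt7a, a ligand with known roles at synapses and in neural progenitors, had 24.0%, 23.5% and 22.9% in STD and 25.5%, 23.0% and 22.9% in ENR. The libraries of both groups overlapped. The level of Wnt7a came mostly from 1 stretch of 8 sites in a coding exon about 16.8 kb from the start, which was at 90.1% ± 1.87 in STD against 90.3% ± 6.20 in ENR (mean ± SD, n = 3 each). Its promoter was at 1.33%.

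Wnt9b, a ligand known from kidney development, was the second most methylated Wnt gene, with 13.4%, 17.1% and 14.1% in STD and 16.1%, 15.5% and 15.5% in ENR. The spread between STD mice was wider than the difference between the groups. Without STD replicate 1 the difference of 0.825 percentage points was 0.0899. Its most methylated stretch was an intron of 6 sites at 84.5% ± 7.27 in STD against 83.9% ± 6.42 in ENR (mean ± SD, n = 3 each). Wnt2, a canonical ligand, had a like form, with its promoter at 1.70% and an intron stretch of 4 sites at 95.7% ± 3.78 in STD against 94.4% ± 3.95 in ENR (mean ± SD, n = 3 each).

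Wnt11, a ligand mostly linked to the non-canonical branch, had 10.7%, 9.59% and 9.76% in STD and 9.47%, 8.61% and 8.09% in ENR over 153 sites. All ENR libraries were below all STD libraries, by -1.28 percentage points on average, or -4.92 with the mean of 1-kb tile means. The 59 sites of the promoter were at 1.53%, and the 36 sites beyond 1 kb of every start at 28.5%. The gene has a methylated intron about 10.9 kb from its start, where 6 sites were at 91.1% ± 2.59 in STD against 81.4% ± 5.97 in ENR (mean ± SD, n = 3 each). In Wnt7b, which like Wnt7a is read by brain endothelium, 177 sites gave 7.64%, 8.40% and 6.92% in STD and 7.91%, 8.20% and 7.81% in ENR, so the groups overlapped. Wnt8b, a ligand of the developing forebrain, had 16.5%, 12.1% and 11.8% in STD and 14.5%, 13.2% and 7.24% in ENR. The lowest value of Wnt8b was in ENR replicate 3, and the groups overlapped.

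Frizzled genes had low levels at the promoter (0.873% to 2.10%). Fzd4, the receptor of Norrin as well as of Wnt ligands, was the lowest of the covered genes, with 0.915%, 1.55% and 1.28% in STD and 1.41%, 0.706% and 1.39% in ENR. All 62 of its sites lay within 1 kb of the start, so the rest of the gene was not read, and 61 of them also lay in the window of another protein-coding gene. The printed sequence holds 12 of its 50 measured CpGs. Fzd8 had 1.94%, 3.28% and 1.93% in STD and 2.66%, 2.38% and 1.52% in ENR. Fzd9, which is expressed in the hippocampus, had 2.02%, 2.58% and 2.01% in STD and 2.02%, 4.38% and 2.58% in ENR. In all of these the groups overlapped, and the Fzd9 difference of 0.790 percentage points was 0.0954 without ENR replicate 2.

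Fzd1 was at 2.15%, 2.24% and 1.89% in STD and at 2.28%, 2.36% and 3.03% in ENR. The lowest ENR library lay just above the highest STD library, and the difference was 0.459 percentage points, or 0.224 without ENR replicate 3. With the mean of 1-kb tile means in place of the mean over sites, the Fzd1 difference turned to -0.493. Along Fzd1 it was uneven. From 1500 to 1999 bases after the start, 26 coding sites gave 7.71%, 6.07% and 2.61% in STD and 9.66%, 9.40% and 9.81% in ENR, while the 32 sites of the preceding 500 bases were at 2.41% ± 0.911 in STD against 1.34% ± 0.918 in ENR (mean ± SD, n = 3 each). This step was chosen after its values were seen. Fzd5 was at 5.60%, 4.87% and 4.61% in STD and at 4.99%, 5.22% and 4.65% in ENR, with overlapping groups.

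In 7 Frizzled genes (Fzd1, Fzd2, Fzd5, Fzd7, Fzd8, Fzd9 and Fzd10) the annotation has 1 coding exon, so the same exon could be followed as far as it was measured. In Fzd7 the mean was 1.06% at 1000 to 1499 bases from the start, 20.1% over the next 500 bases and 62.4% over the 500 bases after that. In Fzd5 it went from 3.09% at 1500 to 1999 bases to 37.9% over the next 500 bases and back to 10.7%. Fzd10 reached 17.9%, Fzd9 11.2% and Fzd1 9.38% in their last covered step. Fzd2 stayed at 4.26% and Fzd8 at 5.69%. The 62.4% step of Fzd7 and the 5.69% step of Fzd8 also held 3′ UTR sites. The 6 such sites of Fzd8 were at 10.4%. The steps at 62.4% in Fzd7 and 37.9% in Fzd5 were the most methylated of the 7 genes. The groups overlapped in both, with a difference of -7.68 percentage points in the most methylated step of Fzd7.

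**Figure D2:**
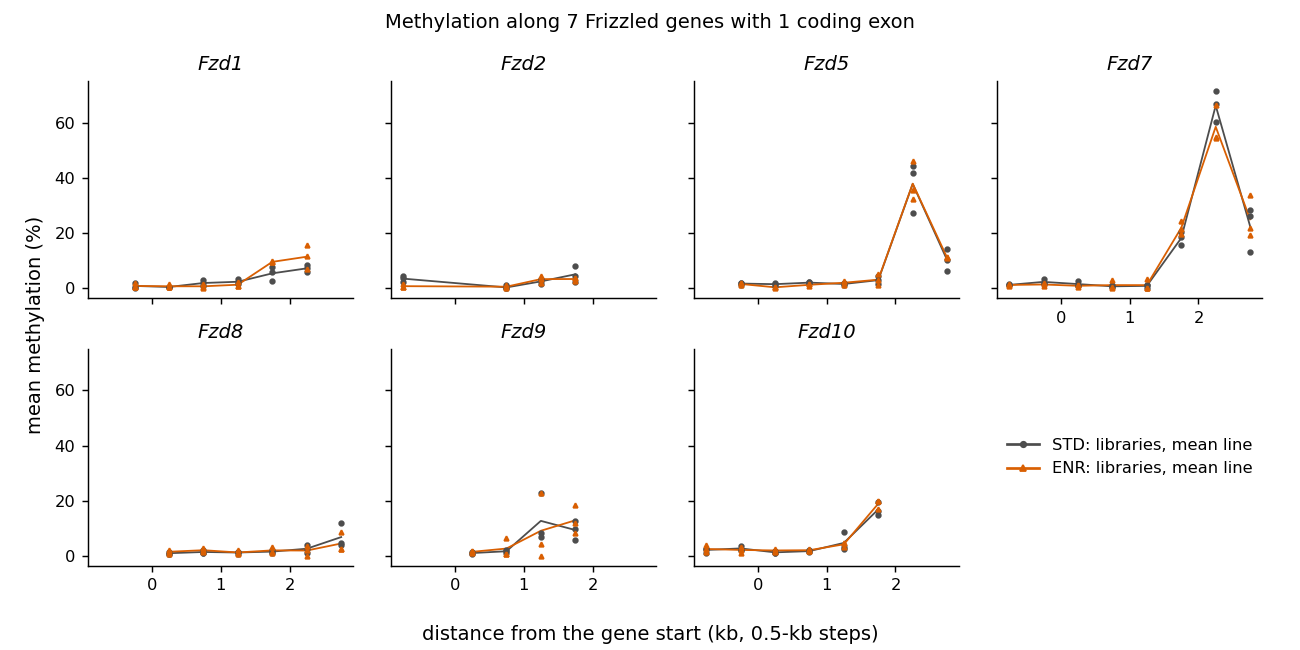
Mean methylation in percent (vertical axis) in steps of 0.5 kb from the gene start (horizontal axis) along the 7 Frizzled genes with 1 coding exon, with points for single libraries and lines for group means (STD gray circles, ENR orange triangles). Levels are near 0 around the start and highest further along the gene, in Fzd7 (62.4%) and Fzd5 (37.9%).

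Fzd3 and Fzd6 have several coding exons and are best known from planar cell polarity and axon guidance. In Fzd3 the promoter was at 1.06%, and 8 sites of a coding exon about 27.2 kb from the start were at 88.0%, 89.5% and 84.5% in STD and at 78.3%, 90.5% and 67.6% in ENR. The groups overlapped, and the lowest value was in ENR replicate 3. Fzd6 had 8.36%, 9.23% and 9.36% in STD and 8.48%, 8.52% and 4.71% in ENR. The difference of -1.75 percentage points rested mostly on ENR replicate 3, without which it was -0.487. The 5 intron sites at 1000 to 1499 bases from the Fzd6 start, at 43.1%, held most of its methylation.

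Lrp5 was the most methylated gene of the group and had the largest difference, and Lrp6 was lower. Both are single-pass co-receptors that are phosphorylated when a Wnt ligand binds. Lrp5 had 36.8%, 40.1% and 37.1% in STD and 33.5%, 36.6% and 31.1% in ENR over 46 sites. All ENR libraries were below all STD libraries, by -4.31 percentage points (SE 2.25), or -11.5 with the mean of 1-kb tile means. Its intron 13.9 kb from the start was almost fully methylated, with 9 sites at 97.1% ± 0.134 in STD against 96.3% ± 1.83 in ENR (mean ± SD, n = 3 each). Lrp6 was at 11.4% ± 0.986 in STD against 11.2% ± 0.518 in ENR (mean ± SD, n = 3 each), with its promoter at 0.916%.

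The difference at Lrp5 was largest upstream of the gene, at -21.6 percentage points over 4 sites, against -2.70 over 14 coding sites and -2.64 over 28 intron sites, where the groups overlapped. The Lrp5 promoter had 8.39%, 9.18% and 8.32% in STD and 4.74%, 6.93% and 4.84% in ENR, and its limma p-value of 0.017 was the lowest among the 31 promoters before adjustment (adjusted p = 0.981). The 4 CpGs from 851 to 576 bases before the start were at 52.8%, 56.8% and 46.9% in STD and at 29.4%, 33.3% and 28.9% in ENR. Each of the 4 was lower in ENR, by -28.4 to -15.8 percentage points, and the average difference was -21.6. Leaving out any library gave -24.3 to -19.3, and leaving out both libraries numbered 3 gave -23.4. Without these 4 sites the promoter was at 1.66% ± 0.445 in STD against 1.50% ± 1.05 in ENR (mean ± SD, n = 3 each), with overlapping groups, and the whole gene differed by -2.66 percentage points, also with overlap. These sites were singled out after their values were seen, and as a 1-kb tile they had a limma p of 0.030 (adjusted p = 1).

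The Dkk genes were methylated in different places. Dkk1, whose loss is known to raise neurogenesis in the dentate gyrus, was at 5.41% ± 2.36 in STD against 4.94% ± 1.23 in ENR (mean ± SD, n = 3 each). All 25 of its sites lay within 1 kb of the start. Dkk2 was at 7.52% ± 0.941 in STD against 6.85% ± 0.698 in ENR (mean ± SD, n = 3 each). Dkk3 was the most methylated, with 17.2%, 19.5% and 18.0% in STD and 17.0%, 16.7% and 14.8% in ENR. Its highest ENR library lay just below its lowest STD library, and the difference was -2.06 percentage points. The most methylated tile of Dkk3 was an intron stretch of 4 sites about 9.15 kb from the start, at 91.3% ± 2.31 in STD against 90.7% ± 6.45 in ENR (mean ± SD, n = 3 each), and tiles of 3 and 4 sites further along the gene were at 48.3% and 51.2%. The Dkk3 promoter was at 6.50% ± 2.04 in STD against 3.93% ± 1.46 in ENR (mean ± SD, n = 3 each).

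**Figure D3:**
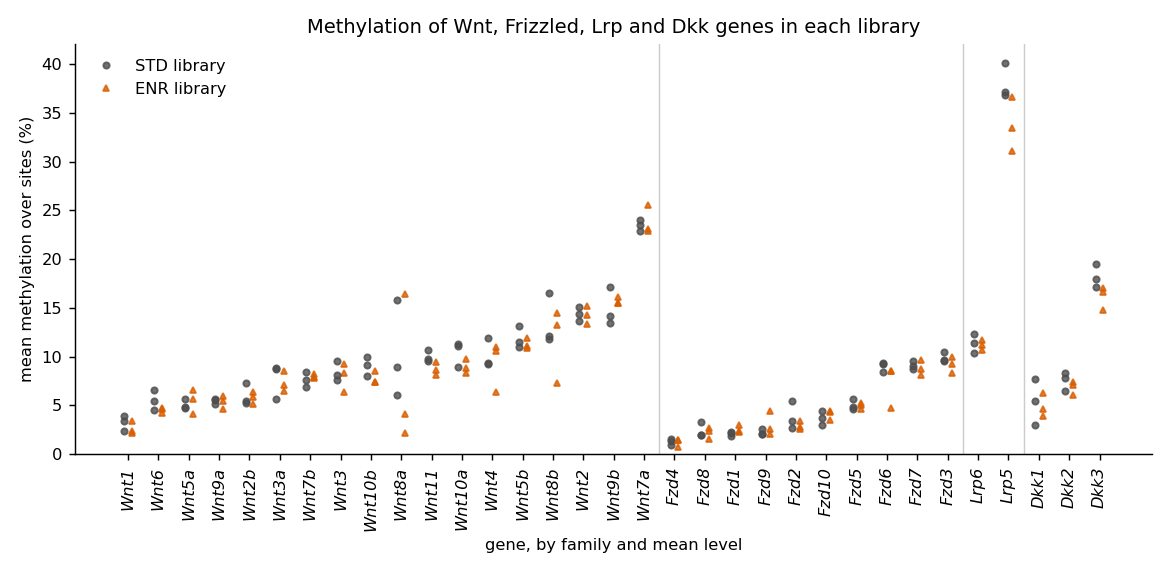
Mean methylation in percent over all sites of a gene (vertical axis) in each library, for the 33 covered genes (horizontal axis), grouped into Wnt, Frizzled, Lrp and Dkk genes and sorted by level (STD gray circles, ENR orange triangles). Lrp5 (31.1% to 40.1%) and Wnt7a lie above the rest, and only in Lrp5, Dkk3, Wnt11 and Fzd1 do the groups not overlap.

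No gene, promoter, tile or site of this group differed between ENR and STD by limma with Benjamini-Hochberg adjustment over all features of the series. Of 33 genes, 0 passed an adjusted p under 0.05 (0% of 16108 genes tested), and 0 had an unadjusted p under 0.05 (3.58% of all). Of 31 promoters 0 passed (0% of 13209), with 1 at an unadjusted p under 0.05 (4.5% of all), that of Lrp5. Of 148 tiles 0 passed (0% of 72222), with 8 at an unadjusted p under 0.05 (3.98% of all), 7 of them lower in ENR. Of 1778 sites that varied between libraries 0 passed (0% of 615152), with 49 at an unadjusted p under 0.05 (2.68% of all), 32 of them lower in ENR. With 3 mice against 3, an exact permutation test cannot go below p = 0.1. Groups that do not overlap always give this value, so the 0.1 of the 4 such genes adds nothing to their separation.

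By direction, 26 of the 33 genes had a lower mean in ENR, where 58.4% of all genes did. The differences ran from -4.31 percentage points in Lrp5 to 0.825 in Wnt9b, with a median of -0.452 against -0.192 over all genes. Without ENR replicate 3 these medians were -0.191 and 0.149, and without STD replicate 1 they were -0.241 and -0.0521. Among the families, the Frizzled sites differed by -0.0276 percentage points on average, the Wnt sites by -0.523, the Dkk sites by -1.41 and the Lrp sites by -1.96. Leaving out 1 library at a time gave -0.111 to 0.107 for the Frizzled sites, with the highest value without ENR replicate 3, and -0.921 to -0.149 for the Wnt sites, with the lowest without ENR replicate 1 and the highest without ENR replicate 3. The Dkk sites gave -1.92 to -1.02 and the Lrp sites -2.44 to -1.38. The count of genes also depended on single libraries. Without ENR replicate 3 it was 18 of 33, where 44.0% of all genes were lower, and without STD replicate 1 it was 19 of 33, where 52.2% were. ENR replicate 3 and STD replicate 3 were the lowest of their groups over all sites with a mean of 20% to 80%, at 37.6% and 43.6%, against 50.9% to 52.3% in the other 4. At the 187 such member sites they were at 36.4% and 39.8%, against 43.7% to 47.6%. Without both libraries numbered 3 the count was 21 of 33, where 52.6% of all genes were lower. Over only the sites beyond 1 kb from every start, 18 of 28 genes were lower, where 62.3% of all genes were. The median difference there was -0.473 percentage points, against -0.930 over all genes.

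Groups that did not overlap were found in 3 genes lower in ENR (Lrp5, Dkk3 and Wnt11, 9.09% against 5.32% of all genes) and in 1 gene higher in ENR (Fzd1, 3.03% against 2.91%). Among promoters, Fzd5, Lrp5 and Wnt6 were lower without overlap (9.68% against 5.52% of all promoters), and Wnt7b and Wnt9b were higher (6.45% against 4.03%). All but Lrp5 were promoters of low level. The Wnt7b promoter had 3.61%, 2.17% and 3.75% in STD and 4.34%, 9.02% and 4.92% in ENR, the Wnt9b promoter 1.71% ± 0.361 against 2.64% ± 0.445 (mean ± SD, n = 3 each, STD first). The Fzd5 promoter was at 1.81% ± 0.152 in STD against 1.04% ± 0.188 in ENR (mean ± SD, n = 3 each), and the Wnt6 promoter at 1.93% ± 0.174 against 1.02% ± 0.498 (mean ± SD, n = 3 each, STD first).

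**Figure D4:**
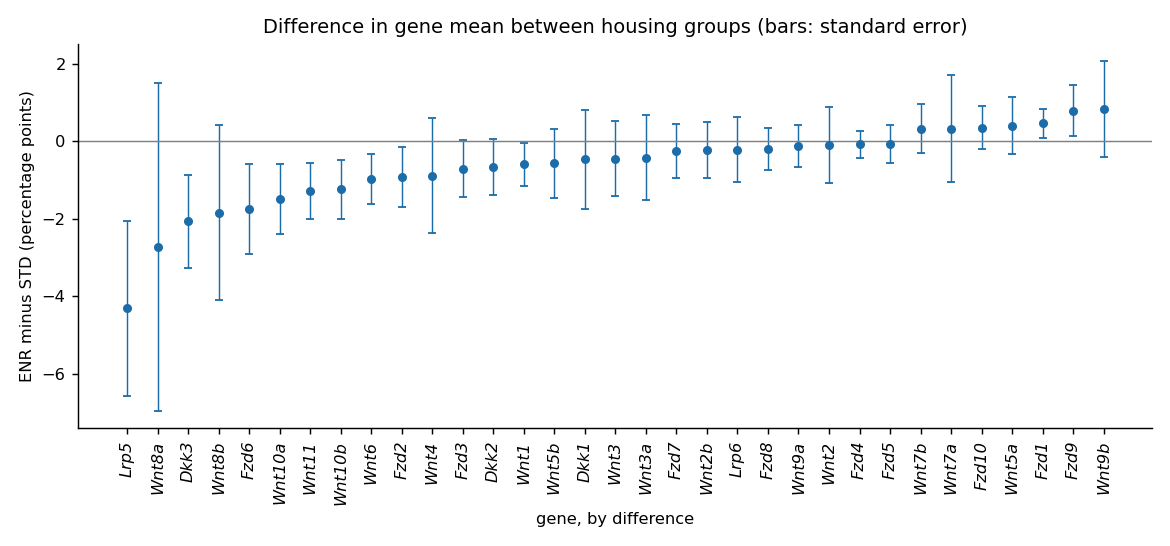
Difference of gene means, ENR minus STD, in percentage points (vertical axis), for the 33 covered genes sorted by difference (horizontal axis), with bars for the standard error of the limma fit. Of the points, 26 lie below 0, from -4.31 in Lrp5, and the highest is 0.825 in Wnt9b.

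Among the tiles of 1 kb, 12 of 149 were lower in ENR without overlap (8.05% against 5.29% of all tiles) and 6 were higher (4.03% against 3.57%). Of the 149, 94 had a mean under 10% and 12 a mean over 80%. The tile with the lowest limma p was in an intron of Wnt6 (chr1:74783001-74784000, 4 sites), with 6.47%, 9.46% and 7.44% in STD and 3.57%, 3.62% and 2.34% in ENR. An intron tile of Wnt11 (chr7:98837001-98838000, 10 sites) had 8.59%, 8.41% and 18.7% in STD and 2.59%, 6.25% and 2.51% in ENR. The differences were -4.61 and -8.13 percentage points, and the Wnt11 difference was -4.72 without STD replicate 3.

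Of the 149 tiles, 1 had a difference over 25 percentage points and was lower in ENR (0.671%, where 0.341% of all tiles were lower by as much), and 0 tiles were higher by as much (0.119% of all).

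Of the tiles higher in ENR, those with the lowest p-values were in Dkk1, Wnt5a and Wnt3. In Dkk1, 12 sites of a coding exon (chr19:30548001-30549000) had 4.47%, 4.80% and 5.65% in STD and 8.11%, 7.89% and 8.71% in ENR. In Wnt5a, a ligand of the non-canonical branch, 18 sites of an intron (chr14:28506001-28507000) had 1.03%, 1.41% and 1.62% in STD and 2.65%, 2.74% and 2.49% in ENR. In Wnt3, a ligand that hippocampal astrocytes are known to secrete, 8 intron sites (chr11:103795001-103796000) had 3.22%, 0.735% and 1.62% in STD and 15.8%, 3.29% and 5.81% in ENR. The value of Wnt3 in ENR rested mainly on replicate 1, without which its difference of 6.44 percentage points was 2.69. The limma adjusted p of each of the 5 named tiles was 1.

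The Wnt5a promoter was the most methylated of the group, and its 9 upstream sites were at 24.5%, 24.6% and 25% in STD and 39.7%, 27.5% and 26.5% in ENR. The difference of 6.51 percentage points came mostly from ENR replicate 1. The 3 measured cytosines at 839 to 798 bases before the start, printed above, were at 41.1% ± 7.73 in STD against 56.3% ± 10.1 in ENR (mean ± SD, n = 3 each), with overlap. The difference of 15.2 percentage points was 9.48 without ENR replicate 1. At the CpG measured on both strands there, the plus strand differed by 0.306 and the minus strand by 30.5 percentage points. These upstream values were chosen after they were seen.

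**Figure D5:**
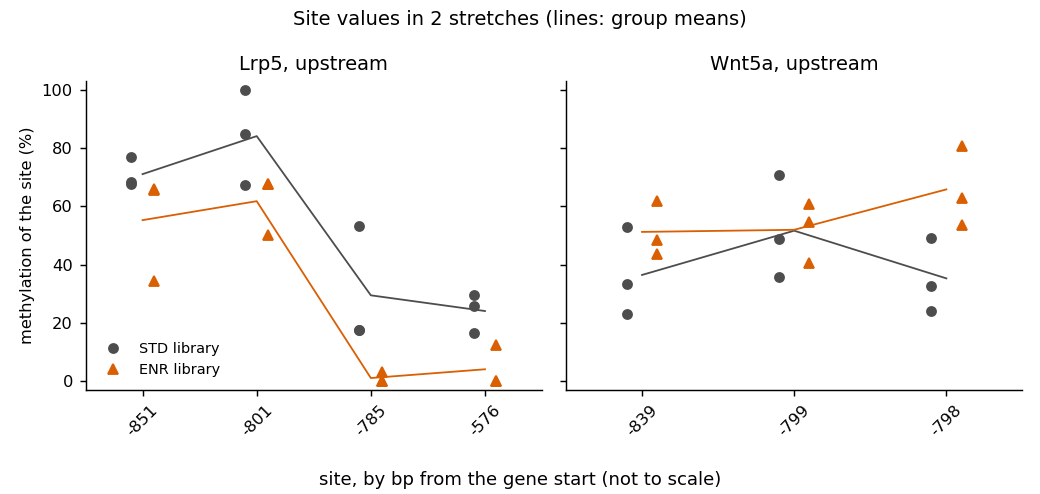
Methylation in percent (vertical axis) of single sites in each library, with group means as lines (STD gray circles, ENR orange triangles), for the stretches upstream of Lrp5 and Wnt5a, with sites named by their distance in bases from the gene start (horizontal axis, not to scale). The ENR line is below the STD line at all 4 Lrp5 sites, with overlapping points at -801, and the Wnt5a points overlap at the first 2 of 3 sites.

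By size alone, 38 member sites in 16 genes had group means over 25 percentage points apart, 25 lower and 13 higher in ENR. This is 1.35% of the member sites, where 1.94% of all sites differed by as much. Because a site near 0% or 100% cannot differ by that amount, the share was also taken over sites with a mean of 12.5% to 87.5%, where it was 11.9% of 318 member sites and 9.01% of all 191621. At 20 of these 38 sites, in 11 genes, the groups did not overlap, 12 lower (0.426% of member sites against 0.516% of all) and 8 higher (0.284% against 0.294%). Without ENR replicate 3, 22 of 45 sites over 25 points were lower in ENR (48.9%, where 39.3% of all such sites were), instead of 65.8% with all libraries (63.6% of all). Wnt5b had the most sites over 25 points (6). Percentages of single sites carry counting error of unknown size, because the reads behind them are not part of the values. At the 525 CpGs read on both strands, the strands differed by 3.89 percentage points on average within a library, and by 16.6 at the 20 of these CpGs with a mean of 20% to 80%.

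The sites chosen by p-value are given with 30 bases around each, in the direction of the gene, with the CpG of that site alone in capitals, whether or not another CpG in the window was measured. The first 3 were lower in ENR and the last 4 higher.
Dkk3 5′ UTR, chr7:112158996-112159025: gcccagctaccggtCGtgaccagatccagc
Wnt10b 5′ UTR, chr15:98776968-98776997: actgactcgcccacCGgagcctccgggctt
Wnt5b 3′ UTR, chr6:119432835-119432864: caagtcactccaacCGgtgaccgtaagaga
Fzd7 coding exon, chr1:59484425-59484454: atgagcaggccttcCGagagcactgggaac
Wnt5b intron, chr6:119520763-119520792: acccaggtccctccCGgtcctcttttgttc
Wnt11 intron, chr7:98839875-98839904: aagagtggaggctcCGgggctcggaggagg
Wnt10a coding exon, chr1:74800559-74800588: gccatagcagctgcCGgggtggtgcacgca

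The Dkk3 site, 46 bases after the gene start, was at 46.2%, 30.8% and 38.5% in STD and at 0% in all ENR libraries. Its 9 neighbors within 100 bases differed by -6.43 percentage points on average, and 7 of the 9 were lower in ENR. The Wnt10b site, 47 bases from an annotated start inside the gene, was at 28.6%, 40.6% and 55.2% in STD and at 0% in all ENR libraries. Its 11 neighbors differed by -0.431 percentage points, and 6 of them were lower. The size of the difference at this CpG was thus not seen in the average of its neighbors. Wnt10b is a canonical ligand known from bone and fat.

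The Wnt5b site, in the 3′ UTR of a ligand linked to cartilage, was at 100%, 91.3% and 100% in STD and at 65.1%, 84.0% and 52.9% in ENR, with no measured neighbor.

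Of the sites higher in ENR, the Fzd7 site was at 73.8%, 60.0% and 62.3% in STD and at 100%, 87.5% and 93.1% in ENR. The Fzd7 CpG 47 bases further on was also higher, with 55.7% in STD and 85.2% in ENR, but only 3 of the 9 neighbors of the first site shared its direction. The intron site of Wnt5b was at 5.61%, 0% and 0% in STD and at 27.3%, 54.8% and 20.7% in ENR, with 2 of 4 neighbors in the same direction. The Wnt11 site was at 47.2%, 17.8% and 24.4% in STD and at 64.2%, 74.4% and 52.9% in ENR, and both neighbors were lower in ENR. The Wnt10a site was at 8.60%, 0% and 0% in STD and at 50%, 9.52% and 27.0% in ENR, and its 8 neighbors averaged 2.28%. The limma adjusted p of each of these 7 sites was 0.852. At the site lower in ENR in Dkk3 most neighbors were lower too, whereas at the sites higher in ENR the neighbors were as often or more often lower or equal.

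Other genes of the Wnt pathway were read in the same fits. A list of 57 genes covers secretion (Porcn, Wls), secreted modulators (Sfrp, Rspo), membrane proteins (Lgr, Ror, Ryk), the destruction complex (Axin, Apc, Gsk3), nuclear factors (Tcf, Lef) and planar polarity (Vangl, Celsr). Of the 56 with at least 3 sites, 0 passed limma with adjustment over all genes (0% of all) and 0 had an unadjusted p under 0.05. Their means were lower in ENR in 35 (62.5%, where 58.4% of all genes were), with a median difference of -0.452 percentage points and a range of -4.17 to 3.38. Groups did not overlap in 5 genes lower in ENR (Ryk, Rspo3, Csnk1e, Nkd2 and Tcf7l1, 8.93% against 5.32% of all genes) and in 0 genes higher in ENR (2.91% of all). The median level of the list was 12.8%.

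The lowest p-values of the list were those of Ryk, a Wnt receptor with a kinase-like domain, at 6.61% ± 0.503 in STD against 5.28% ± 0.826 in ENR (mean ± SD, n = 3 each). Sost, which encodes the Lrp5 and Lrp6 antagonist sclerostin, was at 3.45% ± 1.23 in STD against 1.85% ± 1.06 in ENR (mean ± SD, n = 3 each). Rspo3, a secreted agonist, was at 8.95% ± 0.516 against 7.71% ± 0.713 (mean ± SD, n = 3 each, STD first). In the other direction, Dvl3, which carries the signal from Frizzled receptors, was at 2.07% ± 1.21 in STD against 3.09% ± 0.607 in ENR (mean ± SD, n = 3 each). The agonists Rspo4 and Rspo1 followed, with Rspo4 at 7.88% ± 4.02 in STD against 10.5% ± 2.37 in ENR and Rspo1 at 19.2% ± 1.02 against 21.1% ± 3.38 (mean ± SD, n = 3 each). In Sost and these 3 genes the groups overlapped.

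Methylation in bulk tissue mixes cells and alleles, so a change in a part of the cells and a change in their proportions cannot be told apart. The tissue label could be checked only at promoters of marker genes, which methylation does not read as expression. The promoters of the granule neuron markers Prox1, C1ql2, Calb1, Dsp and Neurod1 were at 0.861% to 1.97%, and those of Mbp (oligodendrocyte), Gad2 (interneuron) and Cldn5 (endothelium) at 4.50%, 3.95% and 5.03%. The other markers listed had fewer than 3 measured promoter sites, and no cell type can be read from these values. The 4 libraries numbered 1 and 2 had means of 23.9% to 24.3% over all sites of the series, and those numbered 3 of 22.5% and 21.3%.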

How the data were processed

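RRBS libraries from 6 mice had been sequenced by the authors, whose reads were aligned with Bismark 0.16.1 to mm10 after Trim Galore 0.4.0 and cutadapt 1.8.1 (versions from the submitters' processing notes), and filtered in methylKit 1.5.2 for cytosines with a minimum of reads. The deposited values are the percent of reads methylated per cytosine and library, without read numbers. Depth above that minimum is therefore unknown, and the study's test on reads could not be run. All 6 columns were used and 0 were left out.

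Sites were assigned to GENCODE M21 genes. Means per gene, promoter and 1-kb tile (at least 3 sites) and single sites were compared with limma 3.58.1 in R 4.3.3 (lmFit, eBayes with a variance trend) on the percent scale, with adjustment over all features. The fit was tested on simulated data. Calls needed an adjusted p under 0.05 and, for sites and tiles, a difference over 25 percentage points. Exact permutation tests (two-sided) covered 20 regroupings. Members, lists and tests were chosen with earlier results of these data known.

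Genes given with every library were the 4 with the highest and lowest means (at least 10 sites), the most sites and the largest differences, and all without overlap between groups. Named sites had the 4 lowest p-values per direction among those over 25 points without overlap, 1 per gene. Named tiles had the 3 lowest per direction among those without overlap, and pathway genes the 3 lowest per direction. Of these, 1 site and the tile that holds it are not reported here.

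Same-numbered libraries came from different mice. Their deviations from the group means correlated by 0.175, 0.148 and 0.339 over genes and by 0.0602, 0.0348 and 0.135 over sites. Libraries 1 and 2 of different groups also correlated across numbers (0.1335 and 0.0998 over genes, 0.0411 and 0.0448 over sites). Across numbers, a library 3 gave -0.24 to -0.193 over genes. Each same-numbered value over genes was thus above the differently numbered values of its libraries. Over sites this failed only for pair 2. Over member sites the same-numbered values were 0.087, 0.034 and 0.062, and the others -0.083 to 0.017. The labels name no batch, so the replicate number was tried as a block only as an alternative.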

Additional observations from a re-analysis of the deposited data

How the results depend on the processing

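With 3 mice per group and no read numbers, counts of 0 calls say little about small shifts. Calls of member genes, promoters, tiles and sites stayed at 0 when each replicate was left out (0 to 0) and under the other alternatives run, which were scale and variance model for each of these, normalization and site sets for genes and sites, tile size and a minimum of sites for tiles, and window size for promoters. With the replicate number as a block the calls were again 0 for genes, promoters, tiles and sites, so the pairing changed no call. Across the sets that each left out 1 replicate, 18 to 27 genes were lower in ENR, where 44.0% to 64.8% of all genes were. The count was 18 without ENR replicate 3 and 19 without STD replicate 1. It was 18 after quantile normalization (where 44.5% of all genes were lower, with median differences of -0.111 in the members and 0.133 in all). With the median over sites it was 6 of 6, where 64.9% of all genes tested in this way were lower. This median was the same in all libraries in the other genes. With only sites over 1 kb from every start it was 18 of 28, where 62.3% of all genes were lower. Sites over 25 points numbered 45 to 51 of 2816 without 1 replicate, where 2.60% to 3.42% of all sites differed by as much. With all libraries, 65 sites passed a limit of 20 (3.74% of all sites) and 6 a limit of 40 (0.244% of all). Without both libraries numbered 3, chosen after seeing the data, 43 sites passed 25 points, where 2.85% of all sites did. With means of 1-kb tile means the median difference was -1.26 (-0.387 in all genes), and the differences were -0.493 in Fzd1, 0.0407 in Fzd4, 0.379 in Fzd5 and -0.135 in Wnt7b, against their direction over sites, and were larger in the same direction in Lrp5 (-11.5, unadjusted p = 0.0391), Wnt11 (-4.92), Wnt8b (-4.62), Fzd6 (-4.39), Dkk3 (-3.11), Wnt9b (2.82), Fzd8 (-1.62), Fzd9 (1.26) and Wnt7a (0.789). Without 1 replicate the differences ran from -0.246 to 0.153 in Fzd4, -0.282 to 0.213 in Fzd5, -0.431 to 0.253 in Fzd8, -0.519 to 0.784 in Wnt7a, -0.0436 to 0.697 in Wnt7b and -3.24 to 0.369 in Wnt8b. The cause was not tested. Lrp5 (-5.75 to -2.98), Dkk3 (-2.58 to -1.37), Wnt11 (-1.66 to -0.951), Fzd1 (0.224 to 0.596), Fzd6 (-2.39 to -0.487), Fzd9 (0.0954 to 1.28) and Wnt9b (0.0899 to 1.93) kept their direction in those sets.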
